A study of Mus musculus with 4 samples.

Results

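The CpG sites described here are those of the frontal cortex table that the authors placed in an exon, but neither in a promoter nor in a CpG island. There were 614 of them among 9731 CpGs in that table, in 528 named genes. The offspring were wild-type CD-1 female mice, 8 weeks old per the labels. The methods give a later adult age for the behavioral tests and brain expression, and which age applies to these libraries is not settled. Their dams carried a mini-osmotic pump for 7 days from day 9 of gestation, filled with estriol (E3; 50 µl of 0.46 mg/ml in DMSO) or with the vehicle DMSO alone (CT). Genomic DNA of the frontal cortex and of the hippocampus was analyzed in 4 libraries, 1 per tissue and condition (frontal cortex E3, frontal cortex CT, hippocampus E3 and hippocampus CT). The number of mice behind a library is not given in the sources used here. With 1 library per group, no comparison has a replicate check, and each test below compares 2 libraries and not the exposures.

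Methylation of the cytosine in a CpG dinucleotide is written by DNA methyltransferases and is dense across the bodies of most genes, including their coding exons, while CpG islands and active promoters are mostly free of it. Promoter methylation usually goes with a silent gene. Methylation inside exons is found in expressed genes as well, and its relation to transcription and splicing differs from gene to gene. The level of a site is the share of bisulfite reads that keep a C, so it counts DNA copies over all cells of the tissue.

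The sites that stood closest together are shown first, since several CpGs of 1 exon differed there in 1 direction. Within less than 100 bases of each other, 89 of the 614 CpGs formed 36 groups of at least 2 sites, and 34 of these groups had 1 direction only. Sites this close can be covered by the same reads, and each is in the table because it differed. A shared direction within a group is therefore not read as separate measurements that agree. No matching count is given for the other sites of the frontal cortex table. The 7 groups of at least 3 sites all had 1 direction, and 6 of them are shown in the reference stretches below, 5 whole and the group of Mturn with 3 of its 6 sites. The 7th, in the pseudogene Cyp4f41-ps, belongs to a family of near-identical cytochrome P450 genes, and reads there can come from a relative. Stretches are the sense strand of the gene in the RefSeq assembly GRCm38 (mm10), 5′ to 3′. Capitals mark the CpGs that belong to the 614; other CpGs of the stretch are in lower case.
Aldh3a1, exon 2, chr11:61212257-61212393, plus strand: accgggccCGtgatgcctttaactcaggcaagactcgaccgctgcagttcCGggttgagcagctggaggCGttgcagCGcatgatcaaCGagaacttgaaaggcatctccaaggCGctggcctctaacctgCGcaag
Kcnk4, exon 6, chr19:6927091-6927162, minus strand: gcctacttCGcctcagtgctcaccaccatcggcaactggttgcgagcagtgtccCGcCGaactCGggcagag
Fmnl1, exon 14, chr11:103193023-103193103, plus strand: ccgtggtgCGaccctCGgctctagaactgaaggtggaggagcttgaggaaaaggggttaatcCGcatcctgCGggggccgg
Rap1gap, exon 17, chr4:137720321-137720404, plus strand: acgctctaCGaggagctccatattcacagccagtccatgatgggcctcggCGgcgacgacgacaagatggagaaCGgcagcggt
Glyatl3, exon 5, chr17:40904917-40905046, minus strand: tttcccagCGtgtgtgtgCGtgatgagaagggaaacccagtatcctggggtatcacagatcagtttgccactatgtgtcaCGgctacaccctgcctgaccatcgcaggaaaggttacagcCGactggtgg
Mturn, exon 3, untranslated, chr6:54699271-54699297, plus strand: gaCGaggtttgctCGgcagtgacCGga

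Of the 614 exon CpGs, 254 were higher and 360 were lower in the E3 than in the CT frontal cortex. All of them are in the table because they differed, by at least 10 points and p under 0.05 in the study's methods, so their differences are described without a test. The median level was 16.2% in E3 and 26.3% in CT, and the median difference of E3 minus CT was -17.5 points. The higher sites had a median of 52.1% in E3 and 4.76% in CT. The lower sites had a median of 2.99% in E3 and 44.9% in CT. Medians do not describe every site, and 144 of the 614 (23.5%) had both levels between 10% and 90%. At 151 sites E3 had 0% and at 93 sites CT had 0%. At 7 sites the level was 100% in E3 and 0% in CT, and at 11 sites it was 0% in E3 and 100% in CT. How many reads stand behind a frontal cortex level is unknown, and no interval can be given. A tissue holds several cell types, and a different mix of cells cannot be told apart from a different level within cells; levels of DNA methylation give no check of the labelled tissue by expressed markers.

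**Figure D1:**
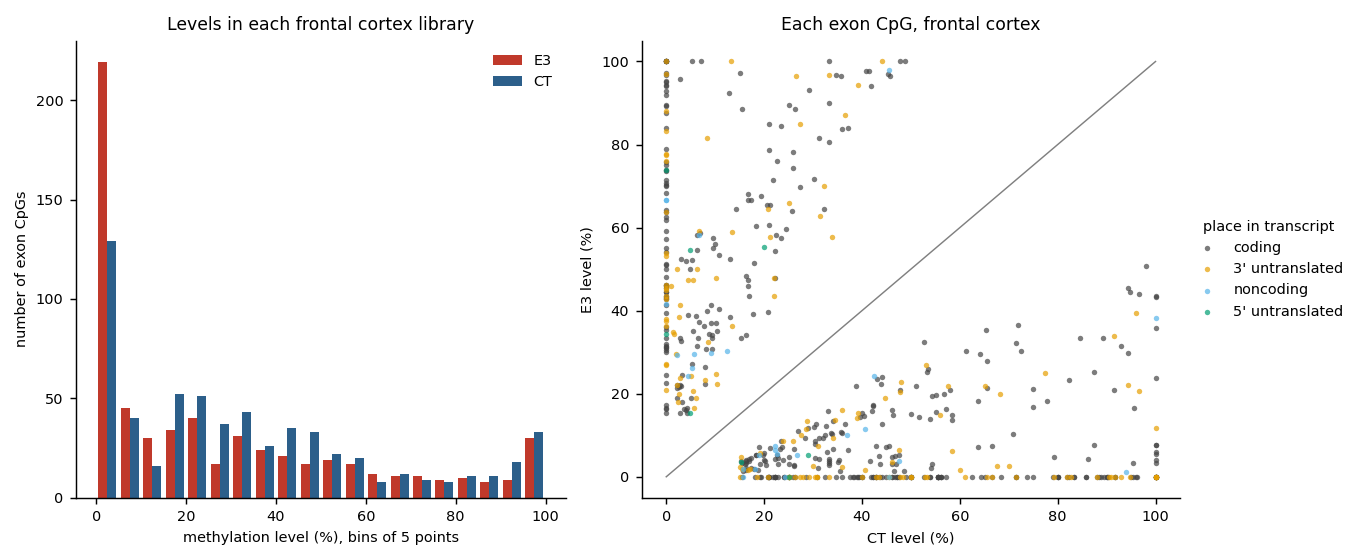
Left, number of the 614 exon CpGs in each bin of 5 points of methylation level, for the E3 (red) and the CT (blue) frontal cortex library. Right, the E3 level of each site (%) against its CT level (%), colored by place in the transcript, with the line of equal levels. At 244 of the sites 1 library is at 0%, the median difference is -17.5 points, and no site has both levels over 60%.

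The table holds a narrow part of the methylation range. At each of the 614 sites the higher of the 2 levels was at least 15.2%, the lower was at most 50.7%, and where the lower was above 0% the ratio of the levels was at least 1.63. None of the 614 had both levels over 60%, and 1 of all 9731 sites had. Among 24162 exon CpGs called in the hippocampus by the stated thresholds, 24.2% had both levels over 60%. The sites just inside the threshold were in Osr2, with 4.72% in E3 and 15.3% in CT, in H2-DMa, with 15.4% in E3 and 4.88% in CT, and in Anks1b, with 16.7% in E3 and 5.68% in CT.

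By RefSeq, 435 of the 614 sites lay in coding sequence, 144 in a 3′ untranslated region, 8 in a 5′ untranslated region and 27 in noncoding transcripts. Coding sites were 70.85% of the 614, against 82.62% of all measured hippocampus exon CpGs outside promoters. For 3′ untranslated sites the shares were 23.45% and 12.82%. These sets were chosen differently, and the shares were not tested. Coding sites were lower in E3 at 260 and higher at 175. The 3′ untranslated sites were lower at 81 and higher at 63. Internal exons held 301 sites, last exons 281, first exons 12 and single-exon genes 18. Sites in internal exons were lower in E3 at 61.1%, and those in last exons at 54.5%. Soft-masked repeats held 14 sites. An intron annotation stood beside the exon annotation at 49 of the sites.

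In the coding sites with a codon frame, the C of the CpG was the first base of the codon in 26.6%, the second in 26.8% and the third in 46.7%. Among coding CpGs of all measured hippocampus exon sites outside promoters, these shares were 35.6%, 24.5% and 39.9%. The 2 sets were made in different ways, so the shares are set side by side only. The stretch from 100 bases before to 100 bases after a site held a median of 7 CpGs, against 8 around the hippocampus exon CpGs. The cutting sites of the enzymes used for the libraries, MspI (CCGG) and TaqI (TCGA), held 16.8% and 6.68% of the 614. Among hippocampus exon CpGs they held 15.8% and 10.4%. At the 41 TaqI sites the level was lower in E3 at 33 and higher at 8. At the 103 MspI sites it was lower at 65 and higher at 38. The 470 sites at neither were lower at 262 and higher at 208.

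The split between higher and lower was closest to that of introns. Of the 614 exon sites 58.6% were lower in E3, against 56.6% of 2545 intron sites, 72.7% of 1138 promoter sites outside islands, 80.7% of 2434 island sites and 53.5% of 3000 sites in no annotated gene. These shares come from the same table and the same 2 libraries, and no test was made between them. Chromosome 11 held the most exon sites, 79, of which 54 were lower and 25 higher. On chromosome 10, 32 of 37 were lower, and on chromosome 6, 19 of 27 were higher, of which 7 are in Mturn. These chromosomes were named after the values of all were seen. Chromosomes were not matched for number of covered CpGs and were not tested.

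Of the 528 genes, 463 held 1 site and 65 held at least 2. Both directions occurred in 13 of these 65 genes. Called promoter CpGs elsewhere in the table carried the name of 97 of the 528 genes. In the 92 of them with 1 direction at each place, exon and promoter had the same direction in 54. Called intron CpGs named 168 of the genes, and in the 130 with 1 direction at each place, 88 had the same direction. Lower sites were the majority among exon (58.6%), intron (56.6%) and promoter sites outside islands (72.7%), so some agreement follows from these shares alone. No expected agreement was worked out, and neither count was tested. A called non-CpG cytosine lay within 100 bases of few sites. It was a CHG cytosine for 10 (1.63%, against 1.47% of all 9731 CpGs) and a CHH cytosine for 15 (2.44%, against 3.63%).

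Aldh3a1, an aldehyde dehydrogenase abundant in the cornea, and Mturn, which promotes neural differentiation in Xenopus, held the most sites, 7 each. In Aldh3a1 all 7 lay within 124 bases of the second exon and all were lower in E3. In genome order their levels in E3 were 7.69%, 16.2%, 19.6%, 30.4%, 14.3%, 21.4% and 32.1%. In CT they were 87.5%, 57.1%, 55.2%, 72.4%, 51.7%, 65.5% and 71.4%. The lowest CT level was therefore above the highest E3 level across the whole stretch, while levels differed between neighbouring CpGs within each library. Sites of 1 short stretch can be covered by the same reads and are not separate measurements.

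Mturn had the other direction. In its last exon 6 sites, in the 3′ untranslated region, had 27.3%, 34.8%, 57.8%, 41.3%, 43.5% and 50.0% in E3. The same sites had 0.00%, 1.41%, 21.1%, 2.86%, 0.00% and 2.13% in CT. A 7th site, further along the same exon, had 94.4% in E3 and 39.3% in CT. All 7 were higher in E3, and the levels of the 6 did not overlap between the libraries.

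Kcnk4, a background potassium channel of neurons that opens on membrane stretch, had 4 sites in exon 6 with 20.9%, 15.1%, 25.9% and 30.2% in E3. They had 47.7%, 50.0%, 53.5% and 61.4% in CT. Another site, in exon 4, had 12.1% in E3 and 32.7% in CT. All 5 sites of this channel gene were lower in E3.

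Fmnl1, a formin that builds actin filaments, had 4 sites in exon 14 that were all at 0% in E3. In CT 3 of them had 21.1% and the other had 26.3%. The stretch holds 6 CpGs, and the other 2 are not in the frontal cortex table.

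Rap1gap, which switches off the small GTPase Rap1, had 3 sites in exon 17 with 84.4%, 84.8% and 78.8% in E3. They had 23.5%, 21.1% and 21.1% in CT. Glyatl3, a glycine N-acyltransferase-like gene, had 4 sites in its last exon with 32.6%, 37.0%, 24.4% and 21.7% in E3. They had 3.03%, 9.09%, 3.12% and 3.03% in CT. Both stretches were thus higher in E3 at every site, Rap1gap to at least 78.8% and Glyatl3 to at most 37.0%.

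Other genes named for their number of sites had 3 each. Mgmt, which removes alkyl groups from guanine in DNA, was at 70.3%, 62.5% and 54.0% in E3 and at 0% in CT at all 3. The sites of Notch4, a Notch receptor of endothelium, lay in 3 exons and had 16.7%, 0.00% and 0.00% in E3 and 95.7%, 81.8% and 90.3% in CT. Cyp4f40, a cytochrome P450 with close relatives beside it, had 25.3%, 16.8% and 2.33% in E3 and 87.5%, 75% and 35.9% in CT. In the frontal cortex Mgmt was thus higher in E3, and Notch4 and Cyp4f40 were lower, at every site.

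**Figure D2:**
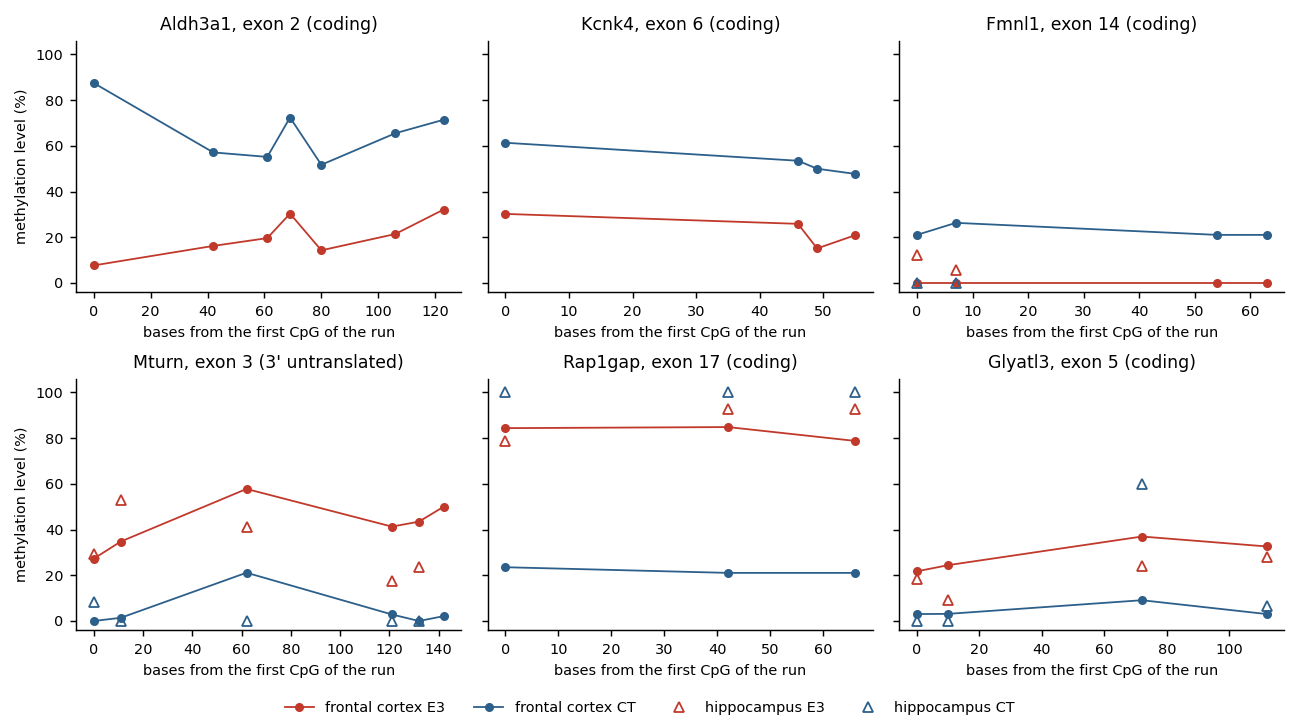
Methylation level (%) at each CpG of 6 exon stretches, against the distance in bases from the first CpG in the direction of transcription. Filled circles with lines are the E3 (red) and CT (blue) frontal cortex libraries, and open triangles are the E3 (red) and CT (blue) hippocampus libraries where the site had at least 5 reads in both; the frontal cortex lines do not cross in any panel, and in Mturn the hippocampus triangles keep their order.

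The largest differences reached 100 points. Among the sites with 100% in E3 and 0% in CT were Gtf3c1, a subunit of the RNA polymerase III factor TFIIIC, Pex14, which docks proteins at the peroxisome, and Trim25 and Trim58, ubiquitin ligases. Atmin, a DNA damage response gene, had 97.3% in E3 and 0% in CT. Pkd1l2, of the polycystin family, had 96.8% in E3 and 0% in CT. The other sites with 100% in E3 and 0% in CT that the naming rule reached were in Pimreg, Tmem108 and Disp3. The opposite levels, with 0% in E3 and 100% in CT, included Plcb1, a phospholipase C of neuronal signaling, Matk, a tyrosine kinase that restrains Src kinases, Scly, which frees selenium from selenocysteine, and Wrn, the helicase mutated in Werner syndrome. Cfap45, Sh2d3c, Nlrp6, Abcc12, Adamts7 and Mob3a had the same levels.

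Of the 18 sites with a difference of 100 points, 12 were measured in the hippocampus, and 2 of the 12 were called there, a share near that of all CpGs (12.1%) and of exon CpGs (15.0%) called by p under 0.05 in Fisher's exact test and a difference of at least 10 points. At Scly all 33 reads of the E3 hippocampus and all 24 of the CT hippocampus were methylated. At Abcc12 all 14 E3 reads and all 8 CT reads were. At Trim25 none of 14 E3 reads and none of 9 CT reads was, and at Adamts7 none of 15 and none of 6. At Gtf3c1, one of the 2 called sites, 34 of 70 E3 reads (48.6%, 95% Wilson interval 37.2 to 60.0) and 0 of 8 CT reads were methylated, which was the direction of the frontal cortex. At Tmem108, the other, 0 of 37 E3 reads and 5 of 9 CT reads (55.6%, interval 26.7 to 81.1) were methylated, the opposite direction. A count of 0 allows up to 3 reads of the total, which is 8.11% for the 37 reads of Tmem108 in E3 and 37.5% for the 8 reads of Gtf3c1 in CT. Intervals and limits cover counting error only, since reads of a PCR library are not independent molecules.

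The hippocampus libraries were not used to choose the sites, and a 2-sided Fisher's exact test on methylated and unmethylated reads was made there for every CpG with at least 5 reads in both libraries. Of the 614 sites 439 were measured, with a median of 36 reads in E3 and 12 in CT. A site was called at p under 0.05 with a difference of at least 10 points. By this rule 134 of the 439 sites (30.5%) were called, against 12.1% of all 1722586 CpGs tested and 15.0% of 161553 CpGs in RefSeq exons outside promoters. The share was 29.0% over all 6651 measured sites of the frontal cortex table, 35.4% over its introns and 36.3% over its sites in no annotated gene. Of the 439, 72 were called higher and 62 lower in E3, where 6.73% of all CpGs were called higher and 5.36% lower. At an adjusted p under 0.05 over all CpGs, 70 sites were called, which is 15.9% of the 439, against 3.94% of all CpGs.

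The level of the sites in the hippocampus differed from that of exons as a whole. None of the 614 had both frontal cortex levels over 60%, and the exon CpGs had no such limit. The contrast is therefore not read as a trait of these sites. The median was 28.6% in E3 and 20% in CT, against 83.0% in E3 and 86.7% in CT over the exon CpGs. Over both libraries together, 33.3% of the 439 sites lay between 10% and 30% and 32.1% between 30% and 70%, where 7.11% and 15.8% of the exon CpGs lay. Only 5.92% were above 90%, against 39.1% of the exon CpGs. CpGs of intermediate level were called more often among all exon CpGs too, so the called share is given within each level. Between 30% and 70% it was 45.4% for the 141 sites and 37.0% for exon CpGs. Between 10% and 30% it was 29.5% for the 146 sites and 27.7% for exon CpGs. At or under 10% it was 13.5% for the 89 sites and 3.47% for exon CpGs. Between 70% and 90% it was 35.1% for 37 sites and 24.9% for exon CpGs, and above 90% it was 7.69% for 26 sites and 3.27% for exon CpGs. Between 10% and 30% the shares were thus close, and at or under 10% they were furthest apart relative to their size. The exon CpGs include sites in CpG islands, and the 614 do not.

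**Figure D3:**
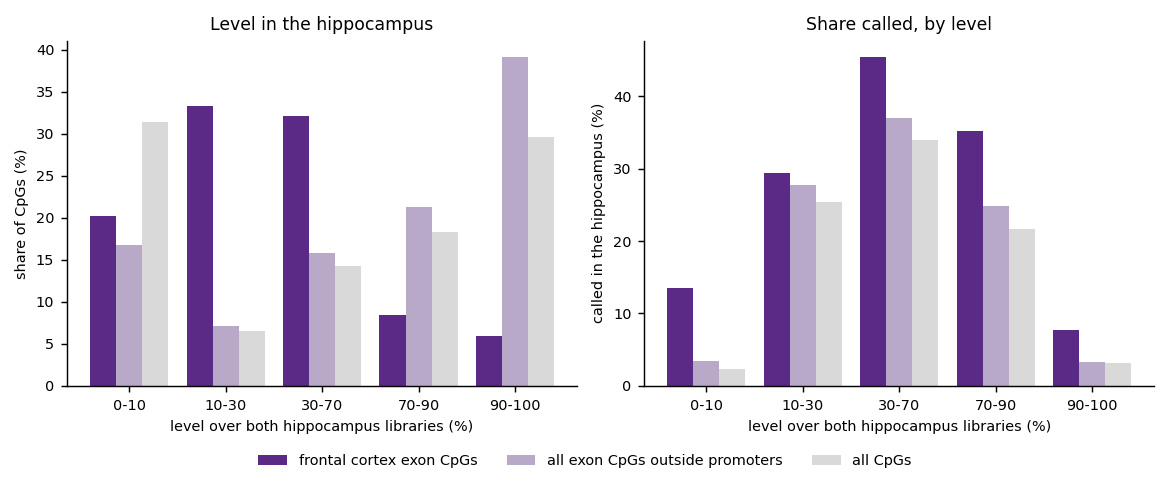
Left, share of CpGs (%) in 5 ranges of methylation level over both hippocampus libraries, for the 439 frontal cortex exon sites (dark), all hippocampus exon CpGs outside promoters (light purple) and all hippocampus CpGs (gray). Right, share called in the hippocampus within each range (%); in the middle range 45.4% of the 141 sites and 37.0% of exon CpGs were called.

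Both directions were about as frequent in the hippocampus, whichever direction a site had in the frontal cortex. Of the 134 called sites 60 moved the same way in both tissues and 74 the opposite way (44.8% the same), against 959 the same and 973 the opposite way over the whole frontal cortex table (49.6%). Of the 62 called sites that were higher in the E3 frontal cortex, 30 were higher in the E3 hippocampus. Of the 72 that were lower, 30 were lower. Over all 439 measured sites, called or not, 188 had the same direction, 207 the opposite one and 44 had equal levels. The differences of the 2 tissues had a Pearson r of -0.04 and a Spearman rho of -0.02 across the 439 sites, which share libraries and neighbours. Adjusted calls split the same way, with 33 in the same and 37 in the opposite direction.

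**Figure D4:**
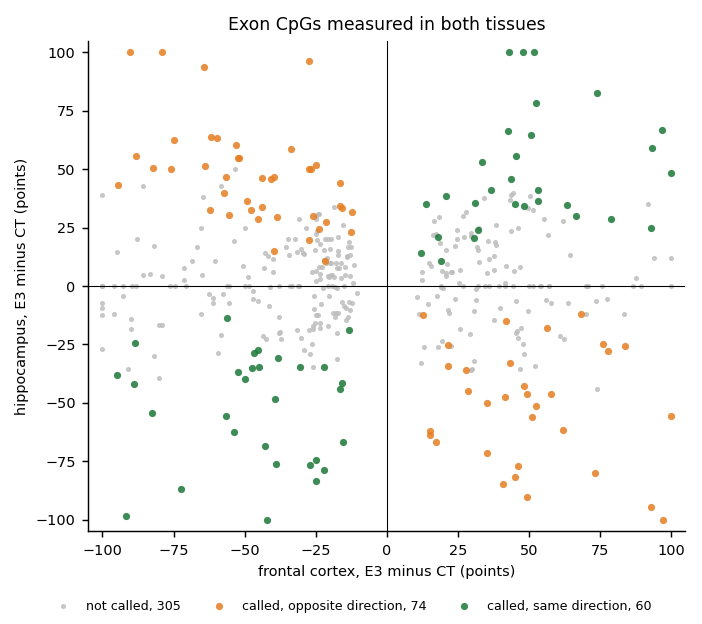
Difference of E3 minus CT in the hippocampus (points) against that in the frontal cortex (points) for the 439 exon sites measured in both tissues. Green, 60 sites called in the hippocampus in the same direction; orange, 74 called in the opposite direction; gray, 305 not called. Called sites lie on both sides of zero in each direction, and the empty band in the middle is the threshold of the frontal cortex table.

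By place, 43 of 84 called coding sites moved the same way in both tissues, and 15 of 41 called 3′ untranslated sites did. In internal exons it was 34 of 63 and in last exons 22 of 65. Sites that differed by at least 50 points in the frontal cortex had the same direction at 24 of 55 called sites. No test was made between these groups of sites.

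Of the called sites that are named, 6 in coding exons are printed with up to 62 bases of the exon, to show the CpG and its surroundings. Agrn is among them from the list of anxiety-related genes and not for its p. In Slc7a9, Dscaml1 and Agrn the 2 tissues moved the same way, and in Dhtkd1, Trpm3 and Dnmbp the opposite way.
Slc7a9, exon 9, chr7:35457008-35457053, plus strand: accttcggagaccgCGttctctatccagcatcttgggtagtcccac
Dscaml1, exon 2, chr9:45447879-45447940, plus strand: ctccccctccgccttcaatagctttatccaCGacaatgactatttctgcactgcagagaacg
Agrn, exon 5, chr4:156179218-156179279, minus strand: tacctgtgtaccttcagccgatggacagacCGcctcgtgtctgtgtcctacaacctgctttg
Dhtkd1, exon 4, chr2:5929688-5929749, minus strand: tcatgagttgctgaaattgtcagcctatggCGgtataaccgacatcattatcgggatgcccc
Trpm3, exon 17, chr19:22901186-22901247, plus strand: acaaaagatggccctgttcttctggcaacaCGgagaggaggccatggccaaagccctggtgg
Dnmbp, exon 4, chr19:43901199-43901260, minus strand: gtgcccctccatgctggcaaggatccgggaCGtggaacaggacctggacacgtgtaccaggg

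Slc7a9, the light subunit of a cystine transporter, had the smallest p among sites of the same direction. In the frontal cortex it had 0% in E3 and 42.3% in CT. In the hippocampus 0 of 121 E3 reads, which allows up to 2.48%, and 30 of 30 CT reads (interval 88.6 to 100) were methylated (Fisher's exact test, p = 2.5e-32, adjusted p = 2.3e-27). Of the 5 hippocampus CpGs of this exon it was the 1 that was called.

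Dscaml1, an adhesion molecule of neurons, had 4.35% in E3 and 31.2% in CT in the frontal cortex. In the hippocampus it had 2 of 30 reads (6.67%, interval 1.85 to 21.3) in E3 and 20 of 24 (83.3%, interval 64.2 to 93.3) in CT (Fisher's exact test, adjusted p = 3.7e-06). Here the exon moved with the site. Over its 13 hippocampus CpGs, 40.5% of 422 E3 reads and 68.3% of 186 CT reads were methylated, with a read counted once for each CpG it covers. Of these CpGs 4 were called, all lower in E3.

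Zfp319, a zinc finger gene, had the smallest p among sites higher in E3 in both tissues, in its 5′ untranslated region. It had 73.9% in E3 and 0% in CT in the frontal cortex. In the hippocampus it had 43 of 51 reads (84.3%, interval 72.0 to 91.8) in E3 and 1 of 58 (1.72%, interval 0.305 to 9.14) in CT, with an adjusted p of 1.0e-16 by Fisher's exact test. Wdr27, a WD repeat gene, had 100% in E3 and 47.7% in CT in the frontal cortex, and 95.2% in E3 and 16.7% in CT in the hippocampus. Abcg4, a sterol transporter of the brain, had 87.2% in E3 and 36.6% in CT in the frontal cortex, and 95% in E3 and 30.4% in CT in the hippocampus. All 3 genes were higher in E3 in both tissues.

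Agap2, a regulator of Arf GTPases in brain, Rnf157, a ubiquitin ligase of neurons, and Gpa33, an intestinal surface antigen, were lower in E3 in both tissues. Agap2 had 17.2% in E3 and 42.3% in CT in the frontal cortex, and 13.1% in E3 and 87.5% in CT in the hippocampus. A second Agap2 site 6 bases away had 13.1% in E3 and 31.2% in CT in the hippocampus and was not called. Rnf157 had 0% in E3 and 39.1% in CT in the frontal cortex, and 24.0% in E3 and 100% in CT in the hippocampus. Gpa33 had 0% in E3 and 91.7% in CT in the frontal cortex, and 1 of 66 reads in E3 and 6 of 6 in CT in the hippocampus.

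Among sites of opposite direction was Ogdh, the first enzyme of the oxoglutarate dehydrogenase complex. It had 0% in E3 and 27.3% in CT in the frontal cortex, and 53 of 55 reads (96.4%) in E3 and 0 of 22 in CT in the hippocampus (Fisher's exact test, p = 2.7e-17, adjusted p = 2.4e-13). The Ogdh site lies in a soft-masked repeat. Dhtkd1, a relative of Ogdh in lysine breakdown, had 0% in E3 and 64.3% in CT in the frontal cortex, and 18 of 18 reads in E3 and 1 of 16 in CT in the hippocampus (Fisher's exact test, adjusted p = 5.0e-06). Cox15, which makes the heme of cytochrome c oxidase, had 45.9% in E3 and 0.99% in CT in the frontal cortex, and 0% in E3 and 81.8% in CT in the hippocampus. Thus Ogdh and Dhtkd1 were called higher and Cox15 was called lower in the E3 hippocampus.

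Trpm3, a heat-sensitive cation channel, had 46.2% in E3 and 0% in CT in the frontal cortex. In the hippocampus 0 of 30 E3 reads, which allows up to 10%, and 10 of 13 CT reads (76.9%, interval 49.7 to 91.8) were methylated. Dnmbp, an exchange factor for the GTPase Cdc42, had 2 sites in neighbouring exons. The exon 4 site had 52.4% in E3 and 2.94% in CT in the frontal cortex, and 9.76% in E3 and 100% in CT in the hippocampus. The exon 3 site had 35.9% in E3 and 100% in CT in the frontal cortex, and 91.2% in E3 and 40% in CT in the hippocampus. Both were called in the opposite direction, and the directions of the 2 sites were opposite within each tissue.

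Ky, a peptidase of muscle, had 3 sites in its 3′ untranslated region, which were higher in E3 in the frontal cortex (20.7%, 43.4% and 23.2% in E3, 5.38%, 22.0% and 7.92% in CT). In the hippocampus they were lower in E3, with 1.72%, 29.3% and 0% in E3 and 63.6% in CT at all 3. The noncoding RNA E230016M11Rik had 98.0% in E3 and 45.5% in CT in the frontal cortex, and 5.63% in E3 and 57.1% in CT in the hippocampus.

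**Figure D5:**
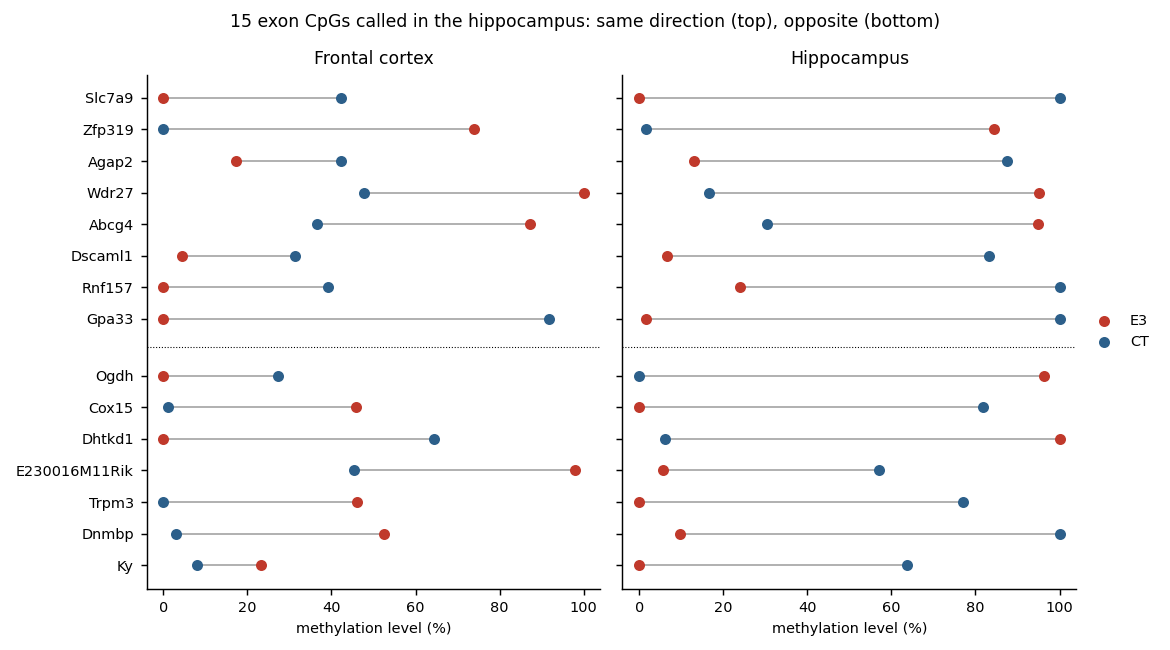
Methylation level (%) in E3 (red) and CT (blue) of exon CpGs called in the hippocampus, in the frontal cortex (left) and the hippocampus (right): 8 of the same direction in both tissues above the dotted line and 7 of the opposite direction below it. In Slc7a9 E3 is at 0% in both tissues, and in Ogdh the colors change sides, with 96.4% in E3 and 0% in CT in the hippocampus.

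Of the dense stretches, Mturn kept its direction in the hippocampus. Of its 6 neighbouring sites 5 were measured there, 2 were called, and all 5 were higher in E3. Summed over them, 35 of 102 reads (34.3%) were methylated in E3 and 1 of 72 (1.39%) in CT. In this and the other sums of this paragraph a read is counted once for each CpG it covers. Neighbouring CpGs share reads, so no interval is given for a sum. The 3 sites of Rap1gap had 37 of 42 reads (88.1%) methylated in E3 and 24 of 24 in CT, and none was called. In Glyatl3 the 4 sites together had 20.1% of 219 reads in E3 and 16.7% of 60 in CT, and the 1 called site was lower in E3, with 24.1% in E3 and 60.0% in CT. Fmnl1 had 6 of 67 reads methylated in E3 and 0 of 16 in CT at its 2 measured sites. The Aldh3a1 stretch and the exon 6 stretch of Kcnk4 were not measured in the hippocampus. The Cyp4f40 sites had 32.4%, 10.8% and 58.8% in the E3 hippocampus and 0%, 31.6% and 0% in CT. Measured Mgmt sites had 0 of 20 and 0 of 22 reads methylated in E3 and 0 of 5 and 0 of 8 in CT. Measured Notch4 sites had 100% and 88.5% in E3 and 95.8% and 71.4% in CT.

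Exons were also taken whole, with hippocampus reads summed over all their CpGs, so that a read counts once for each CpG it covers. Of 545 exons holding a site, 423 had at least 3 CpGs in the hippocampus, with a median of 9. Their direction was that of the mean frontal cortex difference of the sites in the exon in 192, and the opposite in 229. The sums include the sites themselves where these were measured, so this count is not separate from that of the sites. The median size of the difference was 6.91 points, and 161 exons differed by at least 10 points, of which 81 in the frontal cortex direction. No such count was made for exons without a site. The exons given next, in Pkd1l2 (61.2 points) and Dlgap4 (68.2 points), differed by far more than the median exon. In Pkd1l2 the exon of the strongest site had 94.5% of 73 reads in E3 and 33.3% of 24 in CT, the direction of the frontal cortex, and all 4 of its CpGs were called. In Dlgap4, a scaffold of the postsynaptic density, the site had 36.5% in E3 and 71.9% in CT in the frontal cortex and was not measured in the hippocampus. The exon around it had 83.0% of 112 reads in E3 and 14.8% of 108 in CT there, with 4 of 5 CpGs called higher.

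Genes were then read by 14 lists fitting the tissue and the exposure, which were chosen with earlier results of these data known. Of 525 listed genes in RefSeq 20 (3.81%) held a site, against 2.25% of 22440 protein-coding genes, and the 25 sites had 9 higher and 16 lower, with a median difference of -17.0 points. Over all 614 sites the median was -17.5 points. No site lay in the listed 41 monoamine receptor and transporter genes, 20 DNA methylation genes or 46 histone methyltransferase and demethylase genes. None lay in the listed 33 chromatin remodelers, 45 imprinted genes or 26 markers of neurons and glia. The lists do not hold every gene of a kind. Zdbf2, which is not on the imprinted list, had a site with 5.33% in E3 and 19.7% in CT in the frontal cortex. By the 2.25% of all protein-coding genes, lists of this size hold few genes with a site or none. An empty list is therefore not read as a result. Listed genes were not matched to others for length or for number of covered CpGs.

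The list of 20 anxiety-related genes, those assayed by quantitative PCR in brain, held a site in Agrn alone. Agrn encodes agrin, which gathers receptors at synapses, and its exon 5 site had 0% in E3 and 39.4% in CT in the frontal cortex. In the hippocampus 8 of 30 reads (26.7%, interval 14.2 to 44.5) were methylated in E3 and 6 of 8 (75%, interval 40.9 to 92.8) in CT. This site was called (Fisher's exact test, p = 0.0337), but its adjusted p was 0.321.

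Of 41 glutamate receptor and scaffold genes 4 held a site each. Grin2b, an NMDA receptor subunit, had 0% in E3 and 30.8% in CT in its 3′ untranslated region, in a soft-masked repeat. Grm5, a metabotropic receptor, had 40% in E3 and 8.33% in CT. Shank2, a postsynaptic scaffold, had 17.2% in E3 and 0% in CT. With Dlgap4, the family had 2 sites higher and 2 lower in E3, and none of the 3 measured was called in the hippocampus.

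Of the GABA receptor genes, Gabrr3, a rho subunit, had 48.1% in E3 and 0% in CT in the frontal cortex, and 26.2% in E3 and 68.8% in CT in the hippocampus, called in the opposite direction (Fisher's exact test, adjusted p = 0.0595).

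Voltage-gated channels held 8 sites in 5 of 68 genes, 5 higher and 3 lower in E3. Kcns1, a modulatory potassium channel subunit, had 3 sites with 54.2%, 45.8% and 41.4% in E3 and 0% in CT at all 3. In the hippocampus these sites were at 81.0% to 100% in E3 and at 100% in CT. Kcnh5, a potassium channel of the ether-a-go-go family, had 74.3% in E3 and 25.9% in CT. By the unadjusted threshold it was called in the same direction in the hippocampus, with 25 of 37 reads (67.6%) in E3 and 5 of 15 (33.3%) in CT. Cacna1c, the pore of an L-type calcium channel, had 34.2% in E3 and 9.43% in CT. Cacnb4, a calcium channel beta subunit, had 0% in E3 and 27.9% in CT.

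Of the polycomb genes, Cbx6, a chromodomain subunit, had 20.5% in E3 and 47.7% in CT in its 3′ untranslated region. In the hippocampus Cbx6 was called higher by the unadjusted threshold, with 16 of 81 reads (19.8%) in E3 and 0 of 25 in CT. Among estrogen receptors and their partners, the coactivator Ncoa3 had 0% in E3 and 20.8% in CT, and the orphan receptor Esrrb had 3.77% in E3 and 15.2% in CT. Of the axon guidance genes, Ephb2 had 2 sites lower in E3 (11.5% and 10.1% in E3, 28.6% and 27.6% in CT), and Slit2 had 3.61% in E3 and 15.3% in CT. The ligands Wnt3a and Wnt6 had opposite directions, with 68.2% in E3 and 16.7% in CT for Wnt3a and 9.43% in E3 and 34.1% in CT for Wnt6.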

How the data were processed

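DNA cut with TaqαI and MspI was bisulfite sequenced (Methyl-MiniSeq). The methods name TrimGalore, Bismark with mm10 and MethylDackel. The deposited frontal cortex table holds the methylated fraction of each library for sites the authors called, without depth. Its p-values, adjusted p-values and differences, and the p-values, differences and classification in the hippocampus table, are the authors' own comparisons and were not used. The deposited hippocampus table holds read counts and the methylated fraction per CpG and strand. Methylated reads were rebuilt as fraction times reads, rounded (the fraction has 2 decimals, so a count over 100 reads can be slightly off), and both strands were summed. Coverage added over all CpGs was 74553455 in E3 and 27331546 in CT, where a read counts once for each CpG it covers. Deposited frontal cortex fractions of non-CpG cytosines gave positions and directions only, and the hippocampus non-CpG tables were not used.

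Frontal cortex positions were matched to the hippocampus by the C of the plus strand. Exon, coding and codon places came from RefSeq (GRCm38); 612 of 614 sites lay in an exon of the named gene. Fisher's exact test with Benjamini-Hochberg adjustment over all CpGs was tested on simulated data. Intervals are Wilson's at 95%. Alternatives were coverage, difference, strand, adjusted p, runs of neighbours, intron annotation, autosomes and transcript set. Bisulfite reads do not tell an unmethylated C from a genomic T, and genotypes were not analyzed here.

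Named were the 10 genes with most sites, the 10 largest rises and falls (ties by hippocampus reads), the 8 smallest p per direction and up to 4 genes per list; a few of these are not reported here. Members and lists were chosen with earlier results of these data known. Python 3.11.15 with scipy 1.17.1 was used.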

Additional observations from a re-analysis of the deposited data

Results flagged for a closer look

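Opposite directions in the frontal cortex and the hippocampus drew attention at 74 exon CpGs, each called in the hippocampus. The difference between the tissues was not tested, because each tissue has 1 library per condition and the frontal cortex depth is unknown. Those named in the report had hippocampus differences, E3 minus CT, of 96.4 points in Ogdh, -81.8 in Cox15, 93.8 in Dhtkd1, -51.5 in E230016M11Rik, -76.9 in Trpm3, -90.2 in Dnmbp and -63.6 in Ky.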

How the results depend on the processing

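No paired analysis was possible because each group has 1 library. The share of sites lower in E3 stayed between 55.6% and 59.5% under 5 alternatives: 25 points, 50 points, sites outside introns, 1 count per group of neighbours, and autosomes. At 50 points 93 sites were higher and 121 lower. The share of called sites with the frontal cortex direction stayed between 43.0% and 51.2% under 9 alternatives. The number called was 41 with at least 20 reads, 83 on the listed strand only, 70 by adjusted p and 55 among sites of at least 50 points in the frontal cortex. The share called was 36.6% with at least 10 reads (all CpGs 14.7%), 39.4% with at least 20 (all CpGs 17.5%), 26.2% at 25 points (all CpGs 9.78%), 15.9% by adjusted p and 38.2% among sites of at least 50 points. Counts by place in the gene moved by less than 1.5 times under 2 other transcript sets. The hippocampus depth, a median of 31 reads in E3 and 11 in CT over all CpGs, limits what could be called there.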

Other observations

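Gene families outside the lists also held exon sites, and the members named here were chosen after their values were seen. Collagen genes held 8 sites in 6 of 44 genes (13.6%), 4 higher and 4 lower in E3. The paired genes Col6a1 and Col6a2 were lower, with 3.12% in E3 and 43.8% in CT at the first Col6a1 site and 0% in E3 and 42.3% in CT in Col6a2. Both Col6a1 sites were called in the opposite direction in the hippocampus, with 57.1% in E3 and 11.1% in CT at the first. Col5a1 was higher at both of its sites, with 71.4% in E3 and 21.7% in CT at the first. Zinc finger (Zfp) genes held 14 sites in 11 of 416 genes (2.64%, against 2.25% of all protein-coding genes), 5 higher and 9 lower. Axonemal dyneins held 3 sites in 3 of 12 genes (25%), higher in Dnah5 and lower in Dnah2 and Dnah8. Families were not matched to other genes for length or for number of covered CpGs, and their shares were not tested.

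Levels at the 439 sites of both tissues were related weakly. Across sites, the E3 hippocampus had a Pearson r of 0.16 with the E3 frontal cortex and 0.35 with the CT frontal cortex, and the CT hippocampus had 0.15 with the E3 and 0.25 with the CT frontal cortex. The sites share libraries, and the frontal cortex levels were selected for their difference.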
